A study of Mus musculus with 48 samples.

Results

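The genes of brain endothelial and mural cells are described here in the striatum of congenic and wild-type mice. The members were taken by symbol from the table of gene counts: 27 genes that mark endothelial cells and 9 that mark mural cells, 36 of the 23420 genes in the table. All 36 were found, and all 36 were among the 16716 genes kept by a filter on low counts and tested.

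Striatal RNA came from 16 mice aged about 50 days, 8 carrying a congenic segment of 112 kb and 8 labelled B6 wild-type, the C57BL/6J strain. Each genotype had 4 females and 4 males. Tissue punches 3 mm wide from the left and right striatum were pooled per mouse, and no mouse received a treatment that the labels name. Each mouse gave 1 library, sequenced over 3 lanes whose counts were summed, so that n counts mice. A mouse is called by the name of its deposited columns, such as Sample_4806. As background, the donor of this segment is DBA/2J, and the segment, on chromosome 11, includes Hnrnph1, which encodes an RNA-binding splicing factor. The congenic mice are a single line, and the labels do not say whether they carried 1 or 2 copies of the segment.

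Endothelial cells line the brain's vessels and form the blood-brain barrier: tight junctions seal the gaps between them, and transporters carry glucose, lipids and iron across or pump foreign compounds back into the blood. Mural cells wrap the vessels from outside. Pericytes sit on capillaries in a shared basement membrane and receive the growth factor PDGF-B from endothelium, while smooth muscle cells ring the arterioles and contract. Both are a small part of striatal tissue, and in RNA from whole punches fewer cells of a type and less RNA per cell cannot be told apart.

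The mice had 73.1 to 82.0 M gene counts (M for the mega prefix). Genes of striatal projection neurons summed to 6705 to 8797 counts-per-million (CPM) in a mouse, and those of cortical excitatory neurons to 58.1 to 278 CPM. Sample_4806, labelled wild-type and female, had 2.73 CPM of Xist against 958 to 1535 CPM in the other 7 females, and 7 counts in genes of the Y chromosome against 13555 to 15622 in males. Its Xist level went against its label. The list medians and the members named for sex and interaction are therefore also given without it, while other results by sex are not. Males and females were largely numbered apart, with 6 of the 8 females numbered above every male, so a difference by sex and one by the order of the mice cannot be cleanly told apart.

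Per kilobase of exon, endothelial members ranged from 0.528 to 40.3 CPM with a median of 6.56, and mural members from 0.607 to 32.7 CPM with a median of 5.5. The most abundant endothelial genes per length were Cldn5, the claudin of the barrier's tight junctions, at 40.3 ± 4.31 CPM per kb (SD over 16 mice), Slc2a1, the glucose transporter GLUT1, at 34.7 ± 4.06, and Itm2a, a membrane protein gene of brain endothelium, at 33.0 ± 2.96. At the other end stood Lama4, a laminin chain of the vascular basement membrane, at 0.528 ± 0.0619 CPM per kb, Vwf, the clotting factor that marks larger vessels, at 0.967 ± 0.150, and Erg, an ETS transcription factor of endothelium, at 1.42 ± 0.146. Among mural genes Vtn, which encodes vitronectin and marks brain pericytes, led at 32.7 ± 3.85 CPM per kb. It was followed by Tagln, an actin-binding protein of smooth muscle, at 12.5 ± 1.60 and Rgs5, a regulator of G-protein signalling in pericytes, at 9.94 ± 0.982. The lowest were Anpep, the peptidase CD13 of pericytes, at 0.607 ± 0.124, Myh11, smooth muscle myosin, at 1.65 ± 0.310, and Abcc9, a subunit of the pericyte potassium channel, at 1.77 ± 0.203 CPM per kb. Neighbours in this order, such as Slc2a1 and Itm2a or Myh11 and Abcc9, lay within an SD of each other.

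The members differed widely in depth. Anpep rested on 99 to 245 counts per mouse and Erg on 305 to 452, whereas Tfrc, the transferrin receptor, had 7134 to 12280. Counts of Ly6c1, Ly6a, Abcb1a and Acta2 are uncertain where reads match near-identical relatives of these genes, and Egfl7 and Eng overlap other gene models.

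Variation from mouse to mouse was modest. The coefficient of variation of the CPM over all 16 mice was 4.86 to 17.1% with a median of 10.6% for endothelial and 9.88 to 20.5% with a median of 12.2% for mural members. Slco1c1, a transporter of thyroid hormone, was the steadiest, at 82.5 to 98.0 CPM. On the log2 scale the SD was largest for Cdh5 (0.256), Vwf (0.248) and Eng (0.219) among endothelial and for Anpep (0.315), Myh11 (0.286) and Acta2 (0.238) among mural genes. Vwf had 9.60, 14.8 and 18.9 CPM as lowest, median and highest value in congenic and 13.4, 16.5 and 18.0 CPM in wild-type mice. For Eng, the endoglin co-receptor of TGF-beta family ligands, these were 20.3, 26.4 and 31.0 CPM in congenic and 18.6, 27.3 and 30.9 CPM in wild-type mice. Both genes overlapped between the genotypes, with Vwf reaching lower values in congenic mice.

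The mural genes of widest spread had a shared low mouse. Anpep had 1.34, 2.27 and 2.97 CPM as lowest, median and highest value in congenic mice against 1.93, 2.42 and 3.09 CPM in wild-type mice. Myh11 had 6.69, 10.8 and 13.0 CPM against 8.41, 11 and 14.3 CPM. Acta2, smooth muscle actin, had 6.50, 10 and 12.1 CPM against 7.95, 9.04 and 11.3 CPM. The lowest value of each of the 3 genes came from congenic Sample_4673, and their ranges overlapped between genotypes throughout. Across the lists this mouse was the lowest of all 16 for 10 of 27 endothelial and 6 of 9 mural genes, while wild-type Sample_4712 was the highest for 6 and 5 of them. The heat map of the members by mouse shows the columns of these 2 mice.

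**Figure D1:**
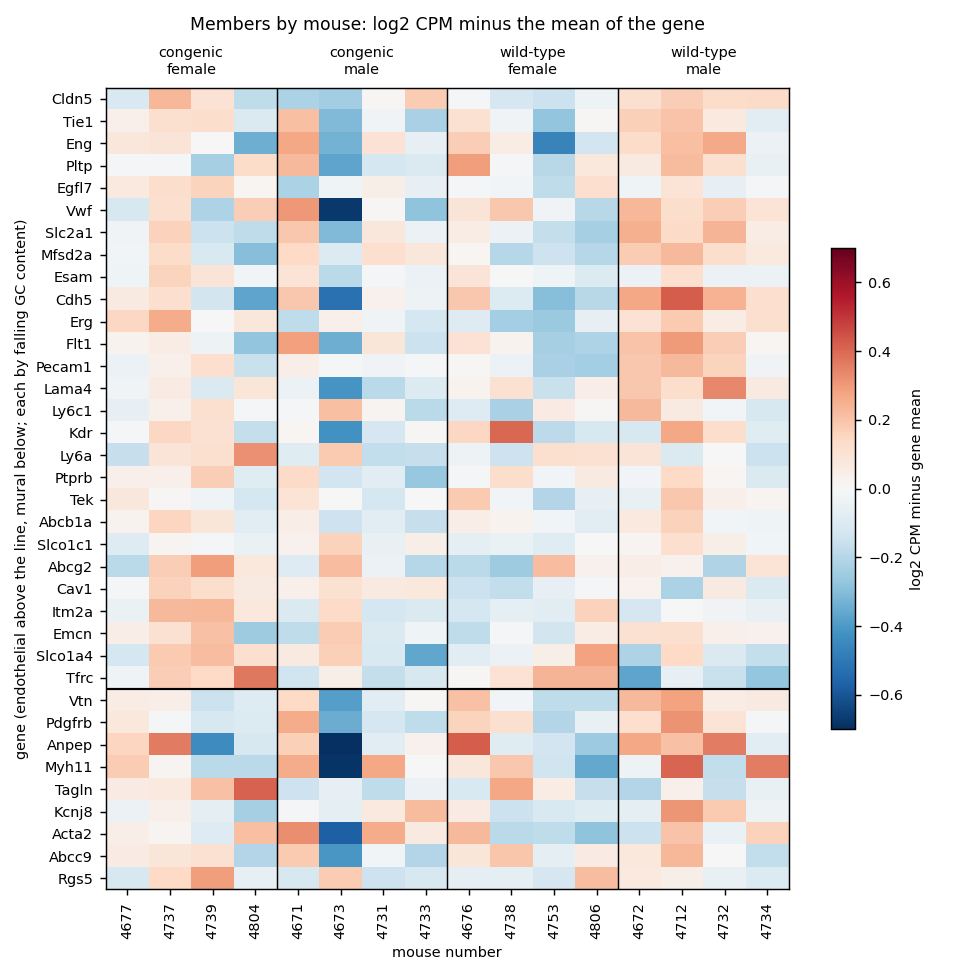
Each cell is the log2 CPM of a gene in a mouse minus the mean of that gene over 16 mice, on a colour scale from -0.7 (blue) to 0.7 (red). Mice are grouped by genotype and sex, and genes by list in order of falling GC content. Sample_4673 is blue for Vwf, Cdh5, Anpep, Myh11 and Acta2, and Sample_4712 is red for most genes in the upper rows of both lists.

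No member passed the test between genotypes. The edgeR quasi-likelihood test with sex in the model called 0 of 27 endothelial and 0 of 9 mural genes at an adjusted p under 0.05, and 0 (0%) of all 16716 genes. Every member had an adjusted p of 0.999. At an unadjusted p under 0.05 there were 2 of 36 members, Cav1 and Lama4, against 1.53% of all genes. DESeq2 and limma-voom also called 0 members and had the same 2 at an unadjusted p under 0.05. The median log2 fold change, congenic minus wild-type, was -0.01 over the endothelial and -0.07 over the mural members, beside 0.00 over all genes. It was below 0 for 15 of 27 endothelial and 6 of 9 mural genes, and for 48.9% of all genes. The 95% interval lay within 0.5 of 0 for 36 of 36 members, as for 85.8% of all genes, so that a difference of that size or larger lay outside the interval of every member. The 2 groups of 8 mice overlapped for all 36 members, and 0 (0%) of all genes had groups that did not overlap.

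Of the junction and matrix genes, Cdh5 and Lama4 were nearest to a difference. Cdh5, the VE-cadherin of endothelial adherens junctions, had 12.4, 17.8 and 20.3 CPM as lowest, median and highest value in congenic and 14.5, 19.8 and 23.9 CPM in wild-type mice. The ranges overlapped, and the log2 fold change was -0.16 (SE 0.10, 95% interval -0.38 to 0.06; edgeR unadjusted p = 0.152). Lama4 had 4.75, 6.04 and 6.72 CPM in congenic and 5.69, 6.73 and 8.00 CPM in wild-type mice. Its log2 fold change was -0.18 (SE 0.08, 95% interval -0.34 to -0.02; edgeR unadjusted p = 0.027, adjusted p = 0.999). The upper congenic and lower wild-type values overlapped, although the wild-type median of Lama4 was level with the highest congenic mouse. Cldn5 stood at 47.8, 54.8 and 66.5 CPM against 51.0, 58.7 and 63.9 CPM, with -0.05 (SE 0.07). Pecam1, the platelet and endothelial adhesion molecule CD31, had -0.01 (SE 0.06).

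Among genes of lipid and membrane traffic, Cav1 gave the smallest p of all members. Cav1 encodes caveolin-1, the coat protein of caveolae, and had 13.8, 14.6 and 15.5 CPM in congenic and 11.9, 13.1 and 14.5 CPM in wild-type mice. Congenic mice lay in the upper part of the range and wild-type mice in the lower, with an overlap between 13.8 and 14.5 CPM. The log2 fold change was 0.15 (SE 0.05, 95% interval 0.05 to 0.25; edgeR unadjusted p = 0.00453, adjusted p = 0.999). Pltp, the phospholipid transfer protein, had 36.2, 45.1 and 54.8 CPM against 41.0, 49.1 and 57.3 CPM, with a log2 fold change of -0.12 (SE 0.08). Itm2a had 52.6, 57.9 and 67.4 CPM against 52.6, 54.9 and 64.1 CPM, with 0.08 (SE 0.05). For Pltp and Itm2a the congenic and wild-type ranges coincided over most of their length.

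The other 20 endothelial members had log2 fold changes from -0.15 (SE 0.11) for Vwf to 0.07 (SE 0.06) for Tfrc. They include the VEGF receptors Flt1 (-0.08, SE 0.08) and Kdr (-0.12, SE 0.09), the angiopoietin receptor Tek (-0.03, SE 0.05) and its partner Tie1 (-0.04, SE 0.08). The phosphatase Ptprb, which acts on Tek, had -0.04 (SE 0.05), and Egfl7, a secreted vessel protein, 0.03 (SE 0.05). The efflux pumps Abcb1a and Abcg2 had -0.04 (SE 0.05) and 0.06 (SE 0.08), and the organic anion transporter Slco1a4 had 0.04 (SE 0.08). The surface proteins Ly6c1, Ly6a, Esam and Emcn lay between 0.00 and 0.04. Slc2a1 had -0.07 (SE 0.07), Erg 0.05 (SE 0.08), Eng -0.04 (SE 0.10), Slco1c1 0.01 (SE 0.03) and Mfsd2a -0.01 (SE 0.06).

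The mural members of smallest p were pericyte genes. Pdgfrb, the receptor of PDGF-B, had 24.5, 29.0 and 37.3 CPM as lowest, median and highest value in congenic and 27, 33.5 and 38.8 CPM in wild-type mice, with a log2 fold change of -0.13 (SE 0.08, 95% interval -0.29 to 0.03; edgeR unadjusted p = 0.109). Vtn had 50.5, 64.4 and 72.7 CPM against 58.2, 68.6 and 80.1 CPM, with -0.11 (SE 0.07). Abcc9 had 10, 13.4 and 15.1 CPM against 11.8, 13.9 and 15.6 CPM, with -0.10 (SE 0.08). All 3 had a lower median in congenic mice and ranges that overlapped, and Sample_4673 was the lowest for each. Without that mouse the median log2 fold change of the 9 mural genes was -0.01, without Sample_4712 it was -0.02, and with the GC contrast described below as a covariate it rounded to 0.00. Among the others, Kcnj8, the pore of the channel that Abcc9 belongs to, had -0.03 (SE 0.07) and Rgs5 0.02 (SE 0.06). The contractile genes Acta2 and Tagln had 0.08 (SE 0.11) and 0.08 (SE 0.07), and Myh11 -0.07 (SE 0.13). Anpep had the widest interval of the 36, -0.46 to 0.14.

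**Figure D2:**
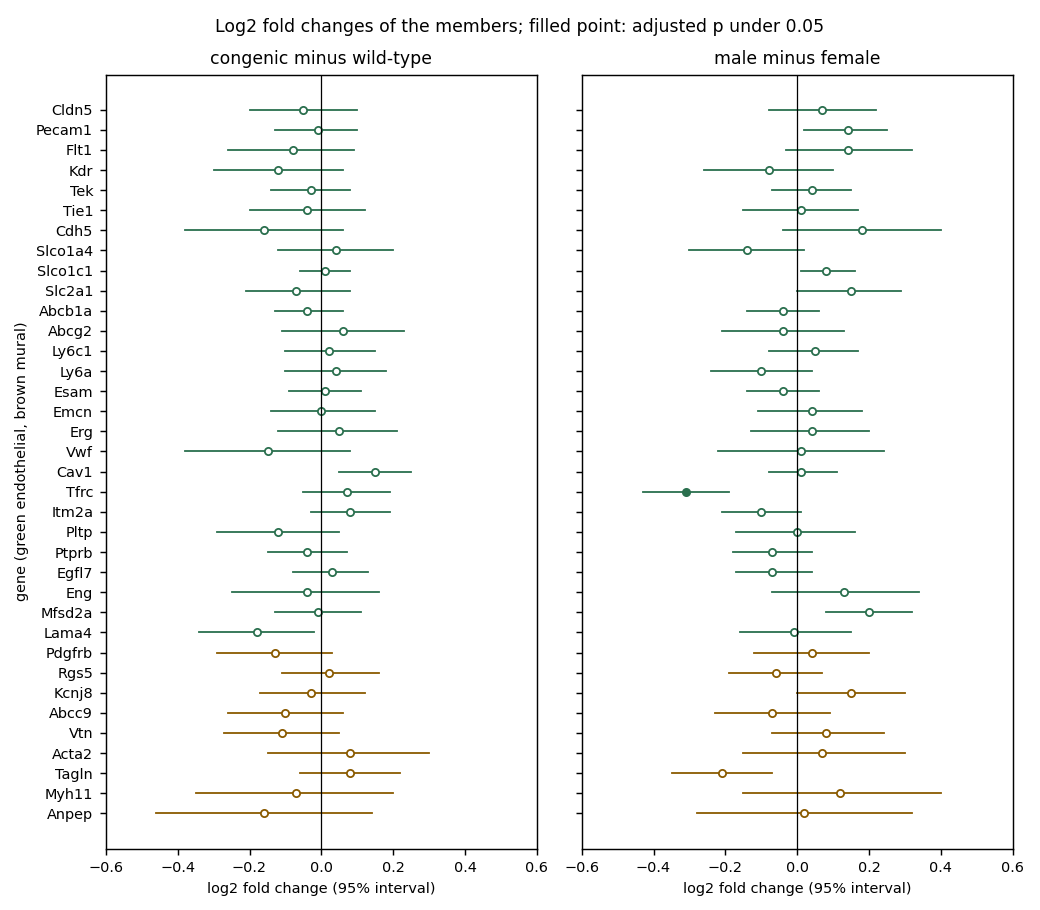
Log2 fold changes of the 36 members with 95% intervals (x axis) from the edgeR fits, congenic minus wild-type on the left and male minus female on the right, with endothelial genes in green and mural genes in brown. Intervals by genotype include 0 for all but Cav1 and Lama4. The single filled point is Tfrc by sex, at -0.31.

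Exon use was compared for 35 members, since Cldn5 has a single exon. In edgeR's diffSpliceDGE, which sets each exon bin against the rest of its gene, 0 of these 35 genes were called, beside 1 of 14875 genes tested (0.00672%). At an unadjusted Simes p under 0.05 there was 1 member, Lama4, against 0.491% of all genes, with a Simes p of 0.00752 and an adjusted p of 1. Of 791 bins of the members, 8 had an unadjusted p under 0.05, against 1.05% of all bins.

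The Lama4 bins of smallest p were neighbouring coding bins early in the gene, bins 7 and 8 in the deposited numbering. Both are flanked by ag and gt in the genome and lie at chr10:38730804-38730928 and chr10:38737127-38737207 on the plus strand of NCBIM37. Their lengths are 125 and 81 bases, the second a multiple of 3. They are printed as the stretches of Lama4 where the genotypes were farthest apart.
Lama4 bin 7: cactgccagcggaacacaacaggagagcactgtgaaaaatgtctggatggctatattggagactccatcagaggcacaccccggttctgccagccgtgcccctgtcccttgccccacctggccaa
Lama4 bin 8: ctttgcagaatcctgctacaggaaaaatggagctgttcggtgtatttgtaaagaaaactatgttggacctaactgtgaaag

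The share of Lama4 exon counts in bin 8 was 0.271, 0.728 and 2.09% as lowest, median and highest value in congenic mice and 1.17, 1.69 and 2.94% in wild-type mice. For 7 of 8 congenic mice it lay below the lowest wild-type mouse, and Sample_4739 was the exception. The mean was 0.816 ± 0.559% against 1.83 ± 0.644% (SD, n = 8 each), with a log2 fold change relative to the rest of the gene of -1.13 (diffSpliceDGE in edgeR, unadjusted p = 0.000188). Bin 7 had 0.469, 1.09 and 2.83% in congenic and 1.53, 2.29 and 2.99% in wild-type mice. Its log2 fold change was -0.94 (edgeR unadjusted p = 0.000563), again with Sample_4739 as the only congenic mouse above the lowest wild-type one. Bins 26, 33 and 34 of Lama4 had positive values of 0.49, 0.47 and 0.55. These bins are shallow: bin 8 held 2 to 17 counts per congenic and 10 to 28 per wild-type mouse, of 586 to 1069 exon counts in the gene, and bin 7 held 4 to 23 and 13 to 32. With bins limited to at least 10 counts in every mouse the Simes p of Lama4 was 0.244. That limit removes bins 7 and 8, so it does not test them again. The main filter asks for about 10 counts in only some of the mice. Every wild-type mouse held that many for bin 8, so that group alone could meet the filter. Both bins were picked by their small p. The share of all bins that set the genotypes apart in this way was not counted. With the main filter, limma's diffSplice gave a Simes p of 0.00676 with 0 members called. GC content differed between the bins, 58.4% in bin 7 and 39.5% in bin 8.

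The members next in order for exon use were far from the threshold. Their Simes p values were 0.256 for Eng, 0.659 for Tie1, 0.717 for Mfsd2a and 0.749 for Anpep (edgeR, adjusted p = 1 for each). The bin of smallest p in Eng, bin 46, held 0.0813 ± 0.0286% of the counts of its gene group in congenic and 0.0411 ± 0.0347% in wild-type mice (SD, n = 8 each), and that group joins Eng with an overlapping gene. In Tie1 bin 28 held 0.433 ± 0.182% and 0.702 ± 0.205%. In Mfsd2a bin 10 held 3.96 ± 0.510% and 3.49 ± 0.567%, and in Anpep bin 17 held 6.50 ± 2.40% and 4.79 ± 1.49%.

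By sex, 1 member was called. Tfrc, whose product brings iron-loaded transferrin across brain endothelium and into other brain cells, was lower in males. It had 88.6, 104 and 118 CPM as lowest, median and highest value in males and 112, 127 and 148 CPM in females. Only the highest male, congenic Sample_4673, overlapped with the lowest females. The log2 fold change, male minus female, was -0.31 (SE 0.06, 95% interval -0.43 to -0.19; edgeR adjusted p = 0.0331). Among all genes 0.138% were called by sex, and 0.0598% as lower in males, with genes of the sex chromosomes included. With each mouse left out in turn, 9 of the 16 fits no longer called it, those without Sample_4672, Sample_4731, Sample_4732, Sample_4733, Sample_4734, Sample_4738, Sample_4753, Sample_4804 or Sample_4806, with log2 fold changes of -0.34 to -0.28 and adjusted p from 0.00788 to 0.107 over the 16 fits. Without Sample_4806 alone it was -0.29 with an adjusted p of 0.0886.

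At an unadjusted p under 0.05 there were 7 of 36 members by sex, against 14.7% of all genes. None of the 36 had sexes that did not overlap, against 0.114% of all genes. Mfsd2a, the carrier that takes lipid-bound docosahexaenoic acid across the barrier, had 16.3, 19.0 and 20.4 CPM in males and 14.2, 16.0 and 19.1 CPM in females. Its log2 fold change was 0.20 (SE 0.06; edgeR adjusted p = 0.16), and the sexes overlapped between 16.3 and 19.1 CPM. Slc2a1 had 79.5, 106 and 117 CPM in males against 83.9, 92.1 and 110 CPM in females, with 0.15 (SE 0.07). Slco1c1 had 84.7, 89.8 and 98.0 CPM against 82.5, 84.8 and 88.8 CPM, with 0.08 (SE 0.03), and Pecam1 26.9, 27.8 and 32.1 CPM against 23.2, 26.6 and 29.7 CPM, with 0.14 (SE 0.06). The median was higher in males for these 4 endothelial genes, while none passed the adjusted threshold.

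In the mural list Tagln had 17.1, 18.4 and 20.2 CPM in males and 17.6, 20.5 and 26.2 CPM in females, a log2 fold change of -0.21 (SE 0.07; edgeR adjusted p = 0.192). Kcnj8 had 4.76, 5.09 and 6.17 CPM against 4.24, 4.73 and 5.19 CPM, with 0.15 (SE 0.07). Vtn had 50.5, 68.6 and 80.1 CPM against 58.2, 63.5 and 75.9 CPM, with 0.08 (SE 0.07). No mural gene passed, and the male range of Vtn held the whole female range. Over the lists the median log2 fold change by sex was 0.01 for endothelial and 0.04 for mural members, with 12 of 27 and 3 of 9 below 0. With the GC contrast described below as a covariate the medians were -0.03 and -0.06, with 16 of 27 and 8 of 9 below 0. Without Sample_4671 the mural median was -0.01, with 5 of 9 below 0. The list medians by sex were 0.00 and 0.02 without Sample_4806, with 13 of 27 and 4 of 9 below 0. Without Sample_4806 the values by sex were 0.18 for Mfsd2a, 0.11 for Slc2a1, 0.09 for Slco1c1, 0.10 for Pecam1, -0.24 for Tagln, 0.14 for Kcnj8 and 0.05 for Vtn, so each kept its sign. The 22 endothelial members without a value by sex above lay between -0.14 (SE 0.08) for Slco1a4 and 0.18 (SE 0.10) for Cdh5.

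Whether the genotype difference itself differed between the sexes was tested with an interaction term, which is negative where the congenic minus wild-type value was lower in males than in females. The edgeR test called 0 of 36 members and 0 (0%) of all genes. At an unadjusted p under 0.05 there were 4 members, Erg, Lama4, Pecam1 and Cldn5, against 4.18% of all genes. The term was below 0 for 26 of 27 endothelial and 9 of 9 mural members, against 51% of all genes, with medians of -0.15 in both lists beside a value that rounds to 0.00 over all genes. Tfrc, at 0.10 (SE 0.12), was the exception. The mural count rested on congenic Sample_4673, without which 5 of 9 mural members were below 0 with a median of -0.08. With each of the other 15 mice left out it was 8 or 9 of 9, and the endothelial count was 23 to 26 of 27 over the 16 fits. Without Sample_4806 the medians were -0.15 and -0.11.

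Erg had the smallest p. Congenic females had 4.90, 5.19, 5.42 and 5.87 CPM, and wild-type females 4.10, 4.16, 4.61 and 4.71 CPM. In males the order was turned round, with 4.33, 4.50, 4.81 and 5.03 CPM in congenic and 5.09, 5.26, 5.31 and 5.57 CPM in wild-type mice. Within each sex the genotypes of Erg did not overlap, in opposite directions. Groups of 4 mice can fail to overlap by chance. The share of all genes that do so was not counted, for Erg or for Lama4 below, and both were picked by their small p. The interaction was -0.47 on the log2 scale (SE 0.12; edgeR unadjusted p = 0.00127, adjusted p = 0.967), and -0.49 without Sample_4806. For Lama4, congenic females had 5.90, 6.23, 6.59 and 6.72 CPM and wild-type females 5.69, 6.45, 6.54 and 6.82 CPM, whereas congenic males had 4.75, 5.55, 5.92 and 6.15 CPM and wild-type males 6.63, 6.89, 7.21 and 8.00 CPM. The genotypes of Lama4 overlapped in females and did not in males, where congenic mice were lower, with an interaction of -0.36 (SE 0.13; edgeR unadjusted p = 0.0144, adjusted p = 0.967), and -0.36 again without Sample_4806. Pecam1 had 27.4 ± 0.647 CPM in congenic males against 30.2 ± 2.26 CPM in wild-type males, and 27.2 ± 2.17 and 25.2 ± 2.22 CPM in females (SD, n = 4 each), with -0.26 (SE 0.10), or -0.21 without Sample_4806.

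The shared sign of the interaction went along with other differences between the 4 groups of mice. The oligodendrocyte list was negative for 10 of 10 genes with a median of -0.30, the list of perivascular fibroblast and meningeal genes for 11 of 12 with -0.26, and the ependyma list was positive for 8 of 8 with 0.54. In the further vascular lists described below, the term was negative for 12 of 12 basement membrane, 17 of 23 other endothelial and 14 of 20 other mural genes. It was also negative for 11 of 16 Wnt, 15 of 23 growth factor and 8 of 11 junction genes. The difference between genes of high and low GC content, described below, averaged 0.10 ± 0.05 in wild-type males against -0.06 ± 0.13 in wild-type females, -0.02 ± 0.10 in congenic males and -0.03 ± 0.11 in congenic females (SD, n = 4 each). With that difference as a covariate the term was below 0 for 23 of 27 endothelial members with a median of -0.11, and for 4 of 9 mural members with a median of 0.02. The part of these other cell types in the result was not tested.

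**Figure D3:**
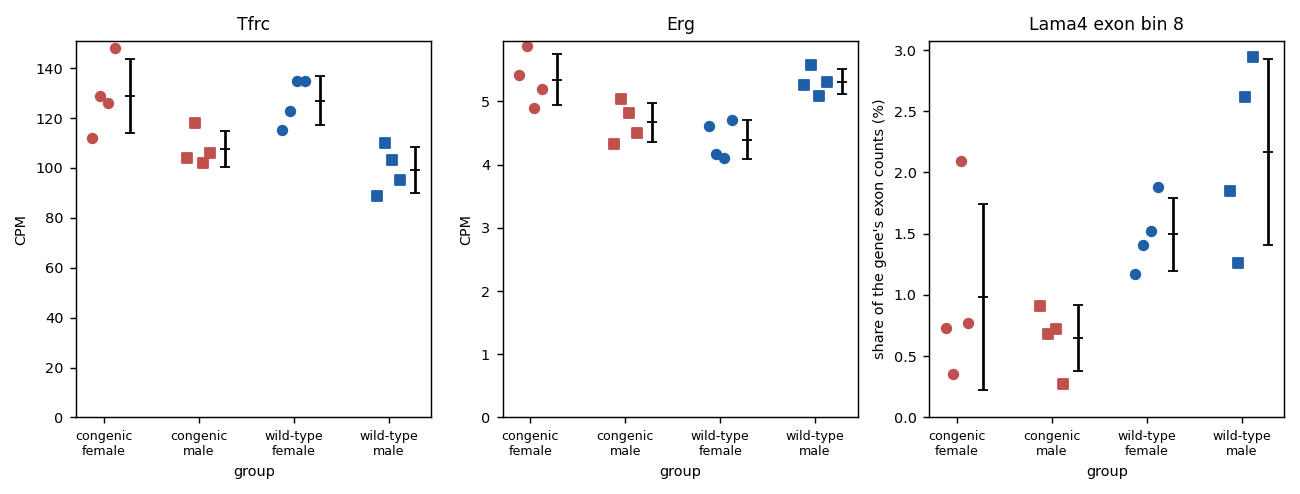
Tfrc and Erg in CPM and the share of Lama4 exon counts in bin 8 (y axes) for the 4 groups of 4 mice, with points for mice and bars for mean ± SD. Tfrc is lower in males of both genotypes, Erg has opposite orders of the genotypes in the 2 sexes, and the Lama4 bin is lower in congenic mice except Sample_4739, at 2.09%.

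Positive co-variation over the 16 mice was common among the members. The median Pearson r of log2 CPM was 0.217 over 351 endothelial pairs, 0.340 over 36 mural pairs and 0.236 over 243 pairs of an endothelial with a mural gene, beside -0.00245 over all pairs of tested genes. An r above 0.5 was reached by 93 endothelial pairs (26.5%), 14 mural pairs (38.9%) and 82 pairs between the lists (33.7%), against 7.17% of all pairs. These are descriptions of pairs that share genes and libraries. The mural median rested in part on Sample_4712, without which it was 0.204, and the other medians without it were 0.181 and 0.165. Within females the 3 medians were 0.286, 0.295 and 0.212, and within males 0.188, 0.355 and 0.257.

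The tightest endothelial pairs joined receptors, adherens junction and glucose transporter. For Flt1 and Cdh5, r was 0.939 and Spearman's rho 0.932, with r of 0.902 without the 2 mice farthest from the median, 0.932 within females and 0.929 within males. Its permutation p was 1e-05, the smallest that 100000 resamples can give, and 0.00126 after Benjamini-Hochberg adjustment over the 630 pairs of members. Flt1 and Eng followed with r of 0.922 and rho of 0.962 (0.881 without the 2 farthest mice), then Cdh5 and Slc2a1 with 0.910 and 0.912, Flt1 and Slc2a1 with 0.905 and 0.906, and Cdh5 and Eng with 0.885 and 0.888. Each of these 5 pairs kept an r of at least 0.825 when the 2 farthest mice were left out.

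Tfrc had negative r with 25 of the other 35 members and positive r with 10. It had r of -0.784 with Mfsd2a (rho -0.715, permutation p = 0.00031, adjusted p = 0.0063), -0.687 with Slc2a1 and -0.658 with Cdh5. In the other direction, r was 0.686 with Slco1a4 (rho 0.709, permutation p = 0.00348, adjusted p = 0.0298) and 0.672 with Tagln (rho 0.668, permutation p = 0.00414, adjusted p = 0.0307). Within the sexes the pair of Tfrc and Mfsd2a had r of -0.593 in females and -0.488 in males, and the medians of the sexes lay on opposite sides in the 2 genes.

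The tightest mural pairs were of pericyte genes. Pdgfrb and Vtn had r of 0.877 and rho of 0.865 (0.765 without the 2 farthest mice; permutation p = 3e-05, adjusted p = 0.00189), Vtn and Anpep 0.869 and 0.824, and Pdgfrb and Abcc9 0.809 and 0.744. Rgs5 had negative r with the smooth muscle genes Myh11 (-0.577, permutation p = 0.0191, adjusted p = 0.0774) and Acta2 (-0.566, permutation p = 0.0217, adjusted p = 0.0835), neither past the adjusted threshold. Against the mean of the rest of its list, r was 0.896 for Vtn and 0.842 for Pdgfrb, but -0.177 for Tagln and -0.442 for Rgs5. Pairs of an endothelial with a mural gene reached similar values: Cdh5 and Vtn had r of 0.925 and rho of 0.929, Flt1 and Pdgfrb 0.876 and 0.838, and Flt1 and Vtn 0.857 and 0.844. The lowest pairs between the lists were Ly6a and Myh11 with r of -0.761 (rho -0.797) and Mfsd2a and Tagln with -0.632 (rho -0.518), the latter falling to -0.289 without the 2 farthest mice.

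The promoters of Flt1, Eng and Tie1 are shown as examples from endothelial members of high co-variation. As background, ETS transcription factors, among them Erg, bind sites with the core GGAA, and such sites are known in many endothelial promoters. Tie1 had the highest r of any endothelial member to the rest of its list (0.886), and Flt1 and Eng formed the second tightest pair. RefSeq promoters of 300 bases (around the start of transcription, GRCm38.p6) were found for 26 of the 36 members. AGGAAG on either strand was present in 18 of 29 promoters of 20 endothelial genes (62.1%), in 0 of 6 of the mural genes and in 35.4% of all 32851 promoters. Some windows of 1 gene overlap, and a match is a string of letters, not a tested site. Among endothelial members with a promoter and r above 0.5 to the rest of their list, Flt1, Eng, Tie1 and Abcb1a had matches. Slc2a1, also in the tightest pairs, and Cldn5, Kdr, Tek, Pltp and Mfsd2a had 0. Every endothelial member with a promoter and r below 0.5 had a match, from Tfrc (r of -0.332) to Erg (0.486). Cdh5 was not among the genes with a promoter. Whether matches go with co-variation was not tested. Capitals mark AGGAAG or its reverse complement CTTCCT, and each sequence is on the strand of its gene: Flt1 at chr5:147725962-147726261 (minus), Eng at chr2:32646345-32646644 (plus) and Tie1 at chr4:118489800-118490099 (minus).
Flt1: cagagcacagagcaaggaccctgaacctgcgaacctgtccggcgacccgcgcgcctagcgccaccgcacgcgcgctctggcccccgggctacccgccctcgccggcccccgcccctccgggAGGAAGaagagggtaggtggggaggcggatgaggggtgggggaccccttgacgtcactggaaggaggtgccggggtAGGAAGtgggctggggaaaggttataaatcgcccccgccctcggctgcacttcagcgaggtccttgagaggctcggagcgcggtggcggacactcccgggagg
Eng: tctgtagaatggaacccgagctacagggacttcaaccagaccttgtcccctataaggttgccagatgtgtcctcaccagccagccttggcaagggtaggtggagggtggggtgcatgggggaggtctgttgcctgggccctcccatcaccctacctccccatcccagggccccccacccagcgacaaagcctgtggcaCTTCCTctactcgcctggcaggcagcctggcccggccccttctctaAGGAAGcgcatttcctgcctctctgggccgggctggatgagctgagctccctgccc
Tie1: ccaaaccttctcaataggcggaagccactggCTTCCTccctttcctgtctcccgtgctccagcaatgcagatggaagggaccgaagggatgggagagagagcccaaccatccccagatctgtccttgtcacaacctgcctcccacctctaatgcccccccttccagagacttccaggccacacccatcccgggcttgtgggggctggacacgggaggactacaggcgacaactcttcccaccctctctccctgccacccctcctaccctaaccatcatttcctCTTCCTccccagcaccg

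**Figure D4:**
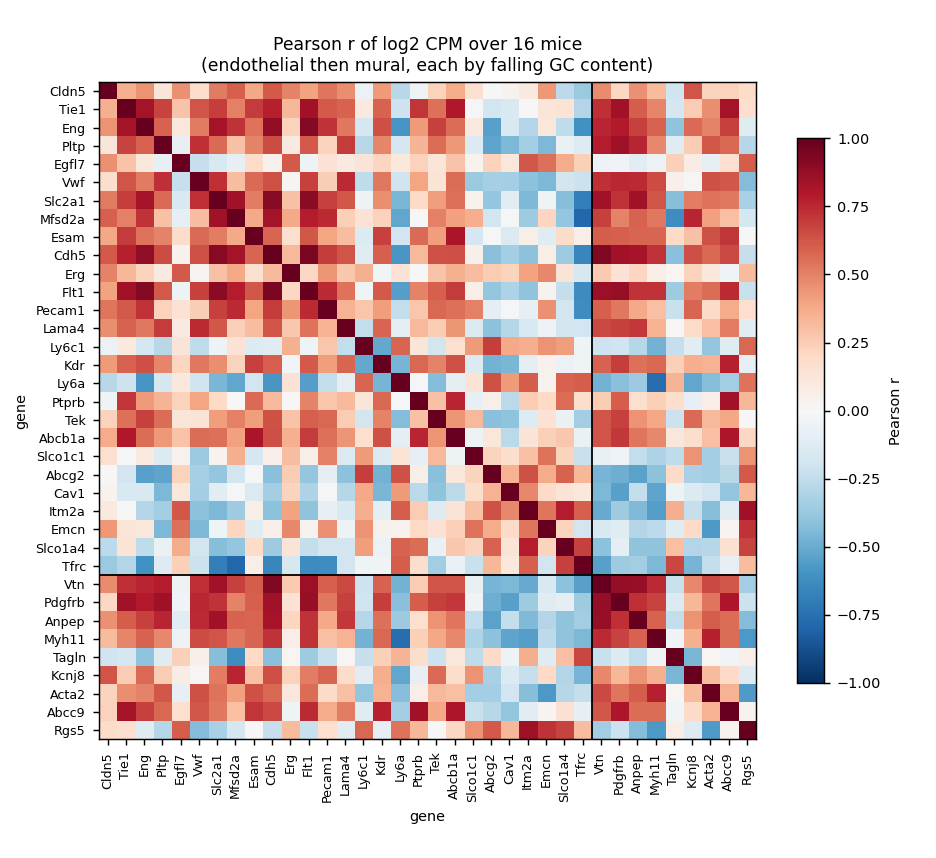
Pearson r of log2 CPM over 16 mice for every pair of members, endothelial genes first and then mural genes, each in order of falling GC content, on a scale from -1 (blue) to 1 (red). Genes of higher GC content, such as Flt1, Cdh5, Eng, Vtn and Pdgfrb, form red blocks within and between the lists, and Tfrc is blue against most of them.

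The summary of each list, the mean of the centred log2 CPM of its genes in a mouse, ran from -0.11 to 0.13 for endothelial and from -0.35 to 0.23 for mural members. The 2 means had r of 0.745 and rho of 0.715 over the 16 mice, and r of 0.66 without the 2 mice farthest from the endothelial median. Endothelial means averaged -0.01 ± 0.08 in congenic and 0.01 ± 0.07 in wild-type mice, and mural means -0.03 ± 0.14 and 0.03 ± 0.11 (SD, n = 8 each), so the genotypes differed by less than the spread between mice.

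Base composition moved with these means. The GC contrast of a mouse was taken as the mean centred log2 CPM of genes of at least 56.2% GC minus that of genes of at most 44.6% GC, 2448 genes each and no member among them. It ran from -0.19 in Sample_4753 to 0.16 in Sample_4712, with Sample_4673 at -0.16. Its r over 16 mice was 0.548 with the endothelial mean and 0.775 with the mural mean. All 14 endothelial members above 50% GC had positive r with the contrast, with a median of 0.559. Of the 13 at or under 50% GC, 4 were positive, with a median of -0.235. Of the 6 mural members above 50% GC, 5 were positive with a median of 0.698, and Tagln was negative at -0.354. Of the 3 mural members at or under 50% GC, 2 were positive with a median of 0.341, Acta2 at 0.608 and Abcc9 at 0.341, and Rgs5 was negative at -0.403. Among all genes 70.5% of those above and 25.5% of those at or under 50% GC were positive. Across the 36 members, r to the rest of the own list had r of 0.609 with GC content, which is a relation across genes that share libraries and not across replicates.

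Named genes show the range. Cdh5 (52.2% GC) had r of 0.865 with the contrast, Vtn (55.3%) 0.877 and Slc2a1 (55.2%) 0.801, while Tfrc (39.8%) had -0.683, Ly6a (48.1%) -0.601, Slco1a4 (40.3%) -0.555 and Itm2a (41.7%) -0.514. Abcb1a, at 45.2% GC, had r of 0.848 with the rest of the endothelial list and 0.383 with the contrast. After the contrast was removed from each gene, the median r was 0.243 for endothelial, 0.168 for mural and 0.131 for pairs between the lists, and 66, 5 and 49 pairs were above 0.5. The share of all gene pairs above 0.5 after this removal was not counted. The 7.17% given above is from values before it and is not the matching share. Flt1 and Cdh5 had r of 0.873 after the removal, Pdgfrb and Vtn 0.799, and Cdh5 and Vtn 0.691. The negative pairs of Tfrc named above had -0.56 with Mfsd2a, -0.319 with Slc2a1 and -0.183 with Cdh5. With the contrast as a covariate Tfrc had a log2 fold change by sex of -0.24 (SE 0.05; edgeR adjusted p = 0.157) and was no longer called.

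**Figure D5:**
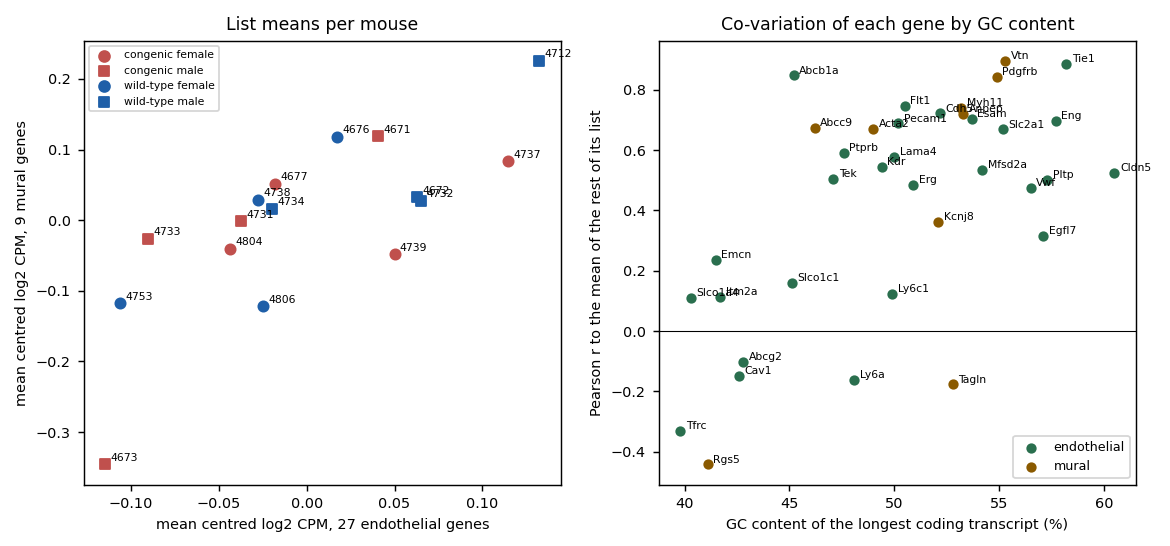
Left, mean centred log2 CPM of the 27 endothelial (x) and 9 mural genes (y) per mouse, coloured by genotype with circles for females and squares for males; Sample_4673 is at the lower left and Sample_4712 at the upper right. Right, r of each member to the mean of the rest of its list (y) against its GC content (x), from -0.442 for Rgs5 to 0.896 for Vtn.

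The genes outside the lists closest to the endothelial mean were Cxcl12 (r = 0.883), Dock8 (0.880), Lsr (0.871), Esyt1 (0.871), Cdc42ep1 (0.854), Matn4 (0.850), Dock1 (0.840) and Slco2b1 (0.839), over 16 mice. Closest to the mural mean were Vps52 (0.949), Eno2 (0.931), Impdh1 (0.929), Acly (0.928), Slc8a2 (0.927), Gnao1 (0.927) and Rtkn (0.923). Of these, Cxcl12 encodes a chemokine of vessel walls and Slco2b1 a transporter found in endothelium, and Eno2, Slc8a2 and Gnao1 are genes of neurons. The cell types of the other genes named here were not examined.

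Further genes of the vessel wall showed no called difference by genotype. The list of tight and adherens junction genes had 0 of 11 called with a median log2 fold change of -0.01, that of Wnt signalling at the barrier 0 of 16 with -0.03, and that of vascular growth factors and receptors 0 of 23 with -0.04. Other endothelial genes had 0 of 23 called with a median of -0.04, and other mural genes 0 of 20 with 0.05. The basement membrane list, whose proteins endothelial and mural cells share, had 0 of 12 called, and 11 of its 12 genes were below 0 with a median of -0.06. Its lowest p belonged to the collagen IV chain Col4a1, with 40.0 ± 4.64 CPM in the congenic group against 43.6 ± 2.72 CPM in the wild-type group (SD, n = 8 each) and a log2 fold change of -0.13 (SE 0.06; edgeR adjusted p = 0.999). The basement membrane mean had r of 0.722 with the endothelial and 0.862 with the mural mean, and the Wnt mean 0.882 and 0.601. The mean of other endothelial genes had 0.743 and 0.722. Lower values were those of other mural genes, 0.181 and 0.223, and of the junction genes, 0.28 and 0.186. The growth factor list had 0.347 and 0.673.

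By sex none of these vascular lists had a called gene either. Apcdd1, an inhibitor of Wnt signalling in barrier endothelium, had 21.0 ± 1.52 CPM in males and 24.8 ± 1.73 CPM in females (SD, n = 8 each), with -0.24 (SE 0.05; edgeR adjusted p = 0.0678). Ctla2a, a protease inhibitor gene of endothelium, had 4.84 ± 0.487 and 6.20 ± 0.829 CPM, with -0.36 (SE 0.08; edgeR adjusted p = 0.0989). Angpt2, the angiopoietin released by endothelium, had 0.968 ± 0.142 and 1.42 ± 0.349 CPM, with -0.56 (SE 0.15; edgeR adjusted p = 0.129).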

How the data were processed

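The authors deposited whole-number counts of reads per gene and per exon bin for 48 runs, not normalised, per the file headers and values. Tools listed in the submitters' processing notes, without their roles, are limma 3.22.7, edgeR 3.8.6, HTSeq 0.6.1p1 and FastQC 0.10.1, and the builds listed are mm9 and mm10. Per the labels' protocols, reads were 50 bp single-end in one place and 100 bp paired-end from a stranded kit in another. The aligner and the strand setting are not given in the sources used here. Of 16744 genes with 5 or more exon bins, 16249 (97.0%) had as many bins as GENCODE M1 on NCBIM37 gives, and exon coordinates are on that build.

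The 3 lanes of a mouse, whose counts differed with a dispersion index of 1.89 to 1.94, were summed per mouse. R 4.3.3 with edgeR 4.0.16 was used for the quasi-likelihood tests, with TMM scaling, robust dispersions, a minimum count of 10, a minimum total of 15 and Benjamini-Hochberg adjustment over all genes at 0.05. The tests are two-sided, and nothing in the labels ties mice to litters. CPM for correlations was on the log2 scale with a prior count of 2. Coefficients of diffSpliceDGE, on the natural log scale, were converted to log2. GC content was that of the longest protein-coding transcript. Alternatives used DESeq2 1.42.0, limma 3.58.1, other filters and scaling, single lanes and fits without each mouse. The tests were tried on simulated data that lacked the variation tied to GC content seen in these mice, and the outcome is not given here. The members and lists were chosen with earlier results of these data known. By rule, values per group were given for the members of smallest p for genotype (5 endothelial, 3 mural), sex (5 and 3) and interaction (3), of largest SD (3 each) and of highest and lowest level per length (3 each). The same rule took the pairs of highest and lowest r, 8 genes closest to each list (1 is not reported here), the 5 members of smallest p for exon use, and 2 genes per further list, of which those named come from the vascular lists.

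The further lists not described in the text (astrocyte, microglia, choroid plexus and blood) had 0 genes called by genotype or sex, with median log2 fold changes by genotype of -0.01, 0.05, 0.03 and 0.06. The last is from a single gene, Alas2, 1 of 7 blood genes in the table and the one that passed the filter.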

Additional observations from a re-analysis of the deposited data

Results flagged for a closer look

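Of 76 groups of 8 mice examined (each member and both list means, within each genotype), 3 had a highest or lowest mouse set far apart from the other 7, by a gap of more than 0.526 of the whole range. Chance alone flags about 1 in 20 such groups. Itm2a was highest in wild-type Sample_4806, at 6.00 log2 CPM against 5.72 to 5.84 in the other wild-type mice. Itm2a lies on the X chromosome, and Sample_4806 is the mouse whose Xist level went against its label. Any link between these was not tested. Acta2 was lowest in congenic Sample_4673, at 2.71 log2 CPM against 3.19 to 3.60. The mean of the mural members was lowest in the same mouse, at -0.35 against -0.05 to 0.12 in the other congenic mice.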

How the results depend on the processing

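The counts of 0 members called by genotype, by interaction and for exon use were the same under every alternative run. The number called by sex was 0 with the GC contrast as a covariate and 0 to 1 in the fits without a mouse. With the GC contrast as a covariate, an alternative chosen after seeing the data, Vtn by sex changed sign to -0.04, the mural median by sex was -0.06 and that of the interaction was 0.02. With the GC contrast removed from each gene, the median r between the lists was 0.131. Of the 36 members, 22 kept their sign by genotype under all 10 alternatives that keep the 16 mice, and 20 by sex. The largest size among those that did not was 0.07 by genotype and 0.12 by sex. For the interaction, 22 members kept their sign under 9 such alternatives, and the largest size among the 14 that did not was 0.33. With lane 4 alone the interaction was below 0 for 22 of 27 endothelial and 9 of 9 mural members. Tfrc by sex was the only member called by any of these fits. Without each mouse in turn, the median log2 fold change by genotype was -0.11 to -0.01 for mural members, and that of the interaction -0.18 to -0.12 for endothelial and -0.24 to -0.08 for mural members. Median r was 0.17 to 0.264 within endothelial, 0.204 to 0.416 within mural and 0.165 to 0.283 between them. No paired analysis was possible because the mouse numbers of the 2 genotypes do not overlap. Depth limits the low genes: Anpep had 99 to 245 counts per mouse, and Lama4 bins 7 and 8 had 2 to 32.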

Other observations

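Summed levels of other cells' genes in the punches were compared with those of the vascular members. The 10 cortical excitatory neuron genes summed to 58.1 to 278 CPM in a mouse and the 8 ependyma genes to 26.8 to 70.1 CPM, whereas the endothelial members summed to 970 to 1130 CPM and the mural members to 174 to 235 CPM. By sex, 0 genes of these 2 other lists were called, with median log2 fold changes, male minus female, of -0.62 for the cortical and -0.25 for the ependyma genes. The endothelial mean had r of -0.0729 with the cortical and -0.520 with the ependyma mean over 16 mice, and 0.607 with the mean of the striatal projection neuron genes. The mural mean had r of 0.672 with the projection neuron mean.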
